A study of Mus musculus with 6 samples.

Results

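Stra8 and 7 genes of retinoic acid signalling were followed in germ cells of the fetal mouse testis: the retinoic acid receptor genes Rara, Rarb and Rarg, their partners Rxra and Rxrb, and the cellular retinoic acid binding protein genes Crabp1 and Crabp2. These 8 of the 27998 genes in the count table were chosen by name, and Stra8 together with cKO sample 3 was singled out because of levels already seen, so Stra8 levels are given as a description. Single-cell RNA sequencing had been done on 3 samples in which the retinoblastoma gene Rb1 was conditionally deleted, labelled Rb1 cKO, and on 3 controls labelled wildtype. All 6 came from male embryos of a mixed C57/B6 and 129 background at embryonic day 14.5, and in all 6 the cells were sorted for the red fluorescent protein tdTomato. The labels name neither the Cre driver nor the deleted exon, and nothing in them says that replicates came from separate animals. The p-values thus rest on the spread among these 6 samples alone, and that spread may be technical. It was pooled in part over genes, so a low p-value does not mean that all samples went the same way.

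Retinoic acid, made from vitamin A, binds receptors of the RAR family, which sit on DNA as partners of RXR receptors. In the fetal ovary it induces Stra8 (stimulated by retinoic acid gene 8), and STRA8 protein then turns on genes of meiotic prophase. In the fetal testis the degrading enzyme CYP26B1 and, later, the RNA-binding protein NANOS2 keep germ cells out of meiosis, and Stra8 normally becomes abundant in the male only after birth.

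The stretches printed here are those around the retinoic acid receptor core element AGGTCA in the promoter of Stra8, since the gene is named for its response to retinoic acid, and in that of Sycp3, a meiotic gene that was higher beside Stra8 in the data below. Sequences are from RefSeq on GRCm38.p6, 5′ to 3′ on the gene's strand, with matches in capitals. Positions count back from the RefSeq start, and both genes lie on the plus strand. GENCODE also lists a longer Stra8 transcript that starts further upstream, so both Stra8 stretches lie inside the annotated gene. The 250 bases before the RefSeq start overlap an annotated exon of Stra8, and those of Sycp3 an annotated exon of Sycp3. The Stra8 stretches lie at chr6:34920742-34920771 and chr6:34920898-34920927, and those of Sycp3 at chr10:88459362-88459391 and chr10:88459522-88459551.
Stra8, -206 to -177: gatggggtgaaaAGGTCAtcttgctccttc
Stra8, -50 to -21: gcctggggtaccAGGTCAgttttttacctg
Sycp3, -225 to -196: gcaaagatggccAGGTCAggtgggatggga
Sycp3, -65 to -36, with the E-box CACGTG: cCACGTGagaacgggcatggagCACGTGct
A search of both strands over the 250 bases before each start found AGGTCA 2 times in Stra8, 1 time in an Rarg window and 2 times in an Rxra window. Of all 32851 promoter windows, 14% held AGGTCA and 6.02% held CACGTG. The 7 members with a promoter sequence had 13 windows, of which 3, or 23.1%, held AGGTCA and 1, or 7.69%, held CACGTG. The letters CNCCTCAG, a motif of STRA8 itself, lay in 0 of these 13 windows and in 6.42% of all windows. A match is a description of the letters and not a binding site.

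The 5154 barcodes kept, each read as 1 cell, numbered 480, 945 and 1164 in cKO samples 1 to 3 and 781, 430 and 1354 in controls 1 to 3, with 7598511 to 17323152 unique molecular identifiers (UMIs, each marking 1 captured RNA molecule) per sample. Levels are given in CPM, the UMIs of a gene per 1000000 UMIs of the sample. They come from 3′ tags. Rb1, the targeted gene, stood at 3.46, 3.73 and 3.57 CPM in cKO samples against 10.3, 8.82 and 6.87 CPM in controls, and its log2 fold change of -1.27 ± 0.19 (SE) did not pass the edgeR threshold (adjusted p = 0.415). The tags may come from beyond the deleted exons, so these values may not check the deletion. Germ cell markers such as Dazl and Ddx4 summed to 8593 to 9460 CPM in cKO samples and 8726 to 9617 CPM in controls. Sertoli cell markers were 5.39 to 10.95 CPM in 5 samples and 24.3 CPM in control 3, and their part in the results was not tested. Every library held Y-linked transcripts, with Eif2s3y at 76.3 to 97.7 CPM, and Xist at 0.395 to 1.03 CPM. 9 barcode sequences occurred in more than 1 library, and 1 of these 18 barcodes held a Stra8 UMI.

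Stra8, on chromosome 6 from 34920163 to 34939344 in the mouse build GRCm38 (ENSMUSG00000029848.11), was a rare transcript with its highest level in 1 cKO library. It stood at 2.69, 2.22 and 17.0 CPM in cKO samples 1 to 3, from 21, 28 and 286 UMIs. In controls 1 to 3 it stood at 5.57, 9.74 and 2.31 CPM, from 61, 74 and 40 UMIs. Sample cKO 3 was the highest of all 6, while cKO 1 and cKO 2 lay below controls 1 and 2, so the groups overlapped. The means were 7.31 ± 8.41 CPM in cKO samples and 5.87 ± 3.72 CPM in controls (SD, n = 3 each). The fit over all genes gave a log2 fold change of 0.48 ± 1.05 (SE) for cKO over control, and without cKO 3 it was -1.23 ± 0.61.

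Sample cKO 3 held 6.33 times the median Stra8 level of the other 5 samples, which ranged from 2.22 to 9.74 CPM. Sample cKO 3 was the highest of the 6 for 12.2% of the 11540 genes tested. A level at least 2 times the median of the others held for 75 genes, or 0.65%. A level as far above as that of Stra8 held for 3 genes, Stra8 among them, or 0.026%. Since Stra8 in cKO 3 was singled out for its level, this share is a description and no support. The other 2, named after their values were seen, were Retn, which encodes the hormone resistin, and Gm7120. Retn reached 31.5 CPM in cKO 3 and also 19.7 CPM in control 3, and Gm7120 reached 6.78 CPM in cKO 3 and 6.75 CPM in control 3.

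The share of barcodes with a Stra8 UMI followed the same order at its upper end. After each barcode was thinned to 10000 UMIs, so that deeper barcodes had no advantage, it was 1.76, 1.87 and 4.46% in cKO samples 1 to 3 and 2.17, 3.36 and 1.14% in controls 1 to 3. The exact binomial 95% interval of cKO 3 ran from 3.32 to 5.86% and that of control 2 from 1.85 to 5.57%, which overlap. That of control 3 ran from 0.611 to 1.95%. Such intervals cover only the counting error of barcodes within a library. Since cKO 3 was singled out beforehand, they are no test between libraries or genotypes. Without thinning the shares were 2.92, 2.12 and 6.10% in cKO samples and 3.46, 4.19 and 1.18% in controls. Median depth ran from 13300 to 16590 UMIs per barcode in cKO samples and from 12749 to 17602 in controls, and cKO 3, at 14349, lay within that range.

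**Figure D1:**
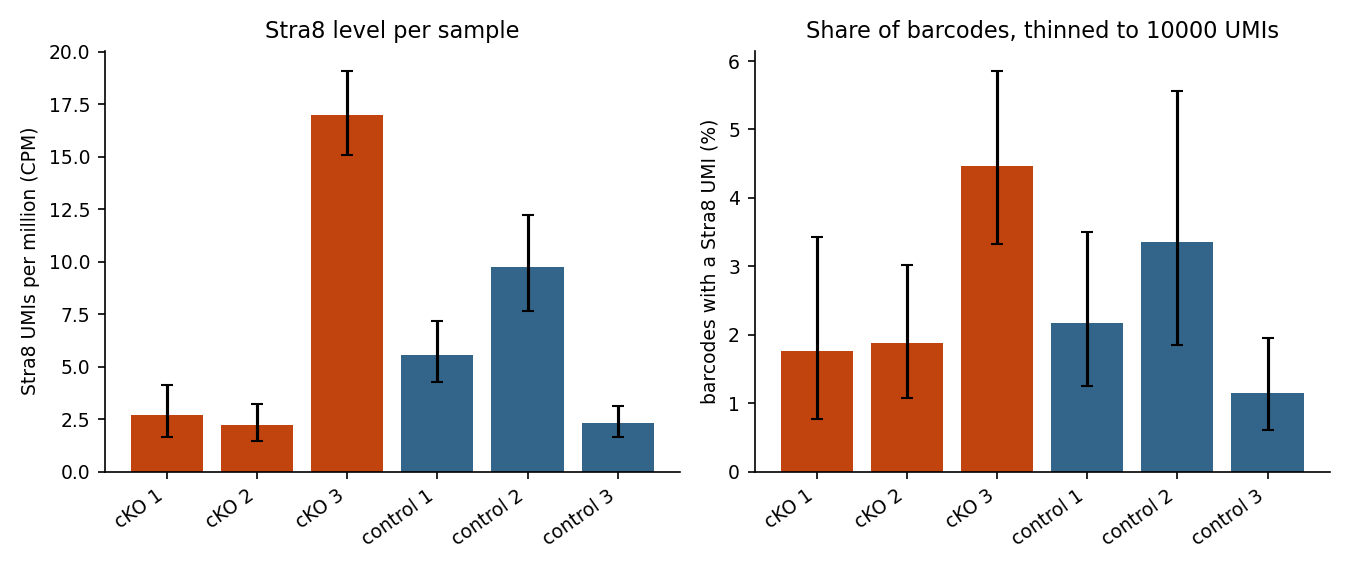
Stra8 per sample: the left panel plots CPM with exact Poisson 95% intervals and the right panel the share of barcodes with a Stra8 UMI (percent) after thinning to 10000 UMIs, with exact binomial 95% intervals; cKO samples are left (orange) and controls right (blue). Sample cKO 3 is the highest in both panels, at 17.0 CPM and 4.46%, and cKO 1 and cKO 2 lie below controls 1 and 2.

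Most Stra8 transcripts came from very few barcodes. Of 5154 barcodes, 166 held a Stra8 UMI: 93 held 1, 35 held 2 or 3, and 38 held 4 or more, up to 21 in a single barcode. The 38 barcodes with 4 or more UMIs, a class chosen after the values were seen and a range rather than a cell type, carried 65.5% of all 510 Stra8 UMIs. They numbered 1, 0 and 24 in cKO samples 1 to 3 and 2, 8 and 3 in controls 1 to 3. The 0 of 945 barcodes in cKO 2 allow a share of up to 0.317% by a limit of 3 counts, and 0.390% is the upper bound of the exact interval. The share was 2.06% in cKO 3 (exact interval 1.33 to 3.05%) and 1.86% in control 2 (0.807 to 3.63%), so these 2 intervals overlapped, and the other 4 samples held 0.256% or less. Within cKO 3 these barcodes carried 78.0% of the Stra8 UMIs, and within control 2 they carried 85.1%.

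With the barcodes of 4 or more UMIs left out, Stra8 stood at 2.06, 2.22 and 3.82 CPM in cKO samples 1 to 3 and at 3.66, 1.47 and 1.04 CPM in controls 1 to 3. Sample cKO 3 was then close to control 1. Of the 160 barcodes called as doublets by Scrublet, 1 held a Stra8 UMI and 0 held 4 or more.

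**Figure D2:**
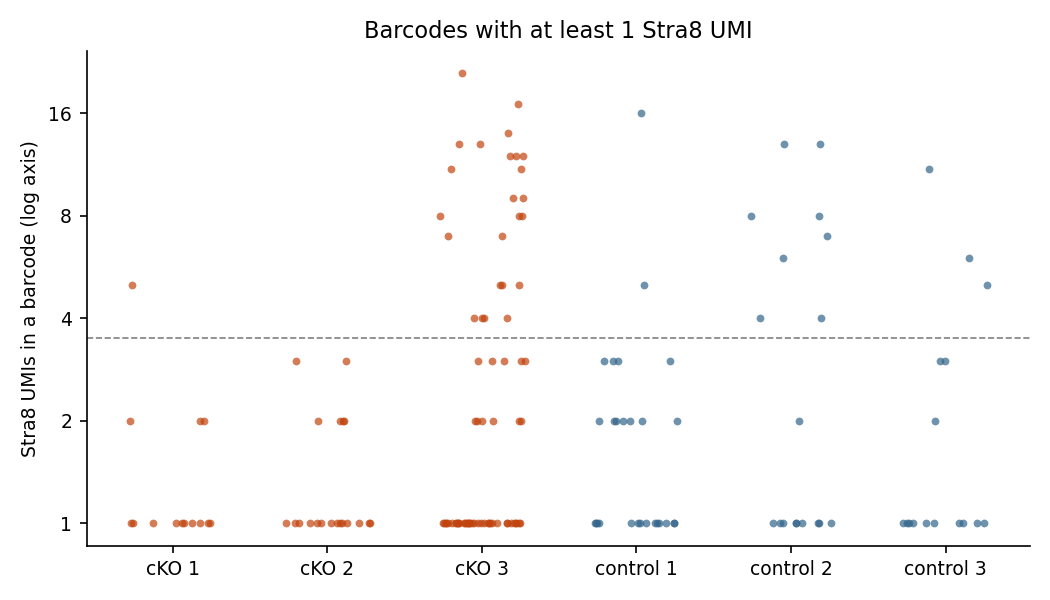
Each point is 1 barcode with at least 1 Stra8 UMI, placed by its number of Stra8 UMIs (log axis) within its sample, cKO samples left and controls right, with sideways scatter for visibility. Above the dashed line are the 38 barcodes with 4 or more UMIs, of which 24 are in cKO 3 and 8 in control 2.

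Among the authors' 5 clusters, which carry numbers and no cell type names, Stra8 was concentrated in cluster 0. The clusters were made from all genes, so these levels are described without a test. In cluster 0, Stra8 stood at 5.46, 4.60 and 33.7 CPM in cKO samples 1 to 3 and at 11.1, 22.1 and 3.95 CPM in controls 1 to 3. In cluster 1 it stood at 0.352, 0.722 and 1.84 CPM in cKO samples and at 0.738, 1.07 and 0.155 CPM in controls. Cluster 0 was the highest of clusters 0 to 3 in 6 of 6 samples, and the lowest sample in cluster 0 lay above the highest in cluster 1.

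The mean over samples was 13.5 ± 12 CPM in cluster 0 (SD, n = 6), followed by 2.77 ± 2.65 in cluster 2, 1.33 ± 1.27 in cluster 3 and 0.813 ± 0.597 in cluster 1. The ranges of clusters 1, 2 and 3 overlapped over samples. Within a sample, cluster 2 lay above cluster 1 in 5 of 6 and cluster 3 above cluster 1 in 3 of 6. Cluster 4 held 0 Stra8-positive barcodes of 98, which allows a share of up to 3.06% by a limit of 3 counts (exact upper bound 3.69%). Cluster 0 held 42.9% of all barcodes, 72.9% of those with a Stra8 UMI, 88.4% of the Stra8 UMIs and 36 of the 38 barcodes with 4 or more.

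At equal depth, 4.21% of cluster 0 barcodes held a Stra8 UMI, against 0.769% in cluster 1 (exact intervals 3.38 to 5.17% and 0.41 to 1.31%). Without thinning these shares were 5.48 and 1.07%, at median depths of 14175 and 13496 UMIs. No group of barcodes from a cell type that lacks Stra8 was at hand in this sort. Stray RNA was therefore not measured, and its part in these shares was not tested. Within cluster 0, the log2 fold change of Stra8 for cKO over control was 0.49 ± 1.11 (SE), and -1.23 without cKO 3.

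**Figure D3:**
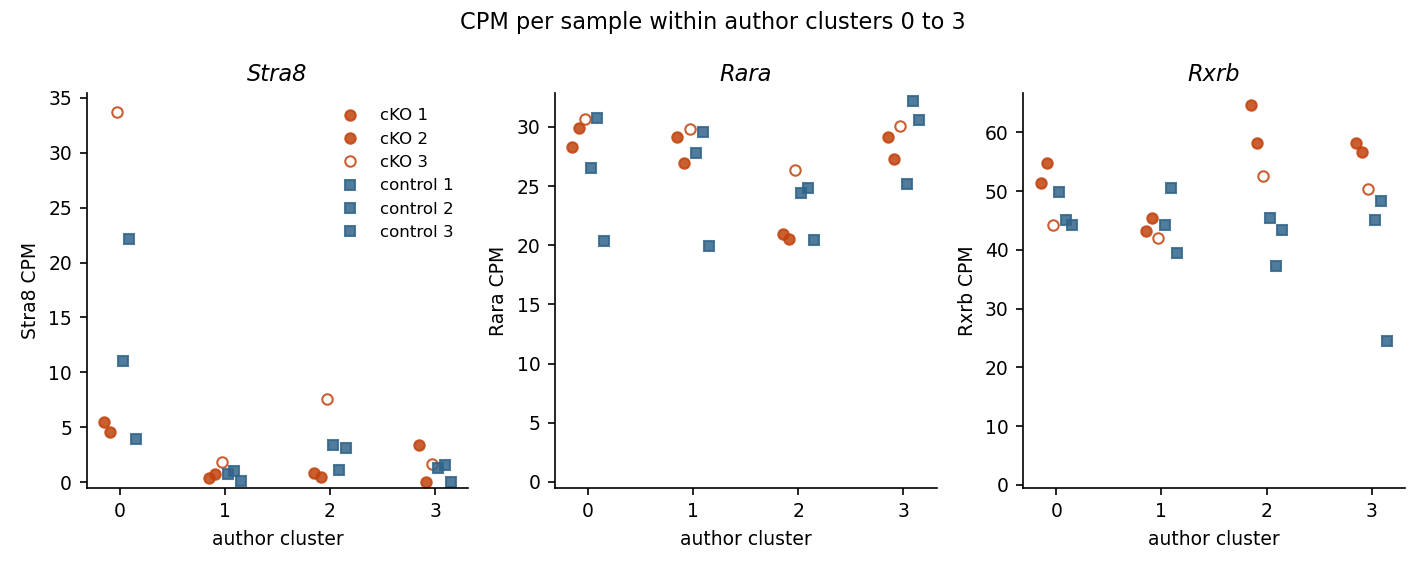
CPM of Stra8, Rara and Rxrb (one panel each) in author clusters 0 to 3, with 1 point per sample: circles are cKO samples, the open circle is cKO 3, and squares are controls, in that order from left to right within a cluster. Stra8 points lie highest in cluster 0, up to 33.7 CPM in cKO 3, while Rara and Rxrb show no such excess in cluster 0.

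The receptor genes showed neither the excess of cKO 3 nor the concentration in cluster 0. Rara encodes the receptor RARalpha and lies on chromosome 11 from 98927818 to 98974942. It stood at 27.5, 27.1 and 29.8 CPM in cKO samples 1 to 3, against 26.4, 29.5 and 20.3 CPM in controls 1 to 3. All samples but control 3 lay within a narrow band, and the groups overlapped. Its log2 fold change was 0.15 ± 0.13 (SE).

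Rarb, itself a target of retinoic acid in many tissues, was at the limit of detection. It had 0 UMIs in each cKO sample and 1, 1 and 0 UMIs in the controls, where 3 UMIs would correspond to 0.173 to 0.395 CPM depending on the sample, so it was not tested. Rarb overlaps Top2b on the opposite strand, and reads of the 2 cannot be told apart if strand was not used in counting. Rarg, which encodes RARgamma and lies on chromosome 15 from 102234938 to 102257517, stood at 3.20, 2.62 and 3.81 CPM in cKO samples and at 3.47, 3.95 and 5.20 CPM in controls. The cKO 3 value lay between controls 1 and 2. Its log2 fold change was -0.41 ± 0.25 (SE).

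Rxra and Rxrb encode partners that RAR receptors need to bind DNA. Rxra, on chromosome 2 from 27676440 to 27762957, stood at 3.97, 3.57 and 3.75 CPM in cKO samples and at 5.57, 3.68 and 3.06 CPM in controls. The controls spread on both sides of the cKO samples, and the log2 fold change of -0.13 ± 0.25 (SE) was 0.16 without control 1. Rxrb, on chromosome 17 from 34031812 to 34038399, stood at 50.9, 52.3 and 45.0 CPM in cKO samples against 47.3, 47.2 and 41.9 CPM in controls. Samples cKO 1 and cKO 2 were the highest and cKO 3 lay among the controls, with a log2 fold change of 0.10 ± 0.09 (SE).

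The binding proteins carry retinoic acid inside the cell, CRABP2 towards the receptors. Crabp1, on chromosome 9 from 54764748 to 54773110, stood at 11.5, 11.6 and 10.3 CPM in cKO samples and at 11.4, 8.03 and 7.97 CPM in controls. Control 1 lay among the cKO samples and the other 2 controls below them, with a log2 fold change of 0.27 ± 0.17 (SE). Crabp2, on chromosome 3 from 87948666 to 87953376, stood at 4.10, 3.49 and 5.0 CPM in cKO samples and at 3.66, 3.68 and 4.27 CPM in controls. Here cKO 3 was the highest of the 6, as it was for Rara, at 1.36 times the median of the others, and the log2 fold change was 0.10 ± 0.22 (SE).

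Between genotypes, 0 of the 7 members tested were called by edgeR, each with an adjusted p of 0.994. The background was 0.0% of 11540 genes called, with 405 genes, or 3.51%, at an unadjusted p under 0.05, and with 1 gene called higher and 3 lower by DESeq2. Groups overlapped for all 8 members, where they did not overlap for 8.62% of genes tested. For Rara, Rarg, Rxra, Rxrb, Crabp1 and Crabp2, cKO 3 stood between 0.901 and 1.36 times the median of the other 5 samples.

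**Figure D4:**
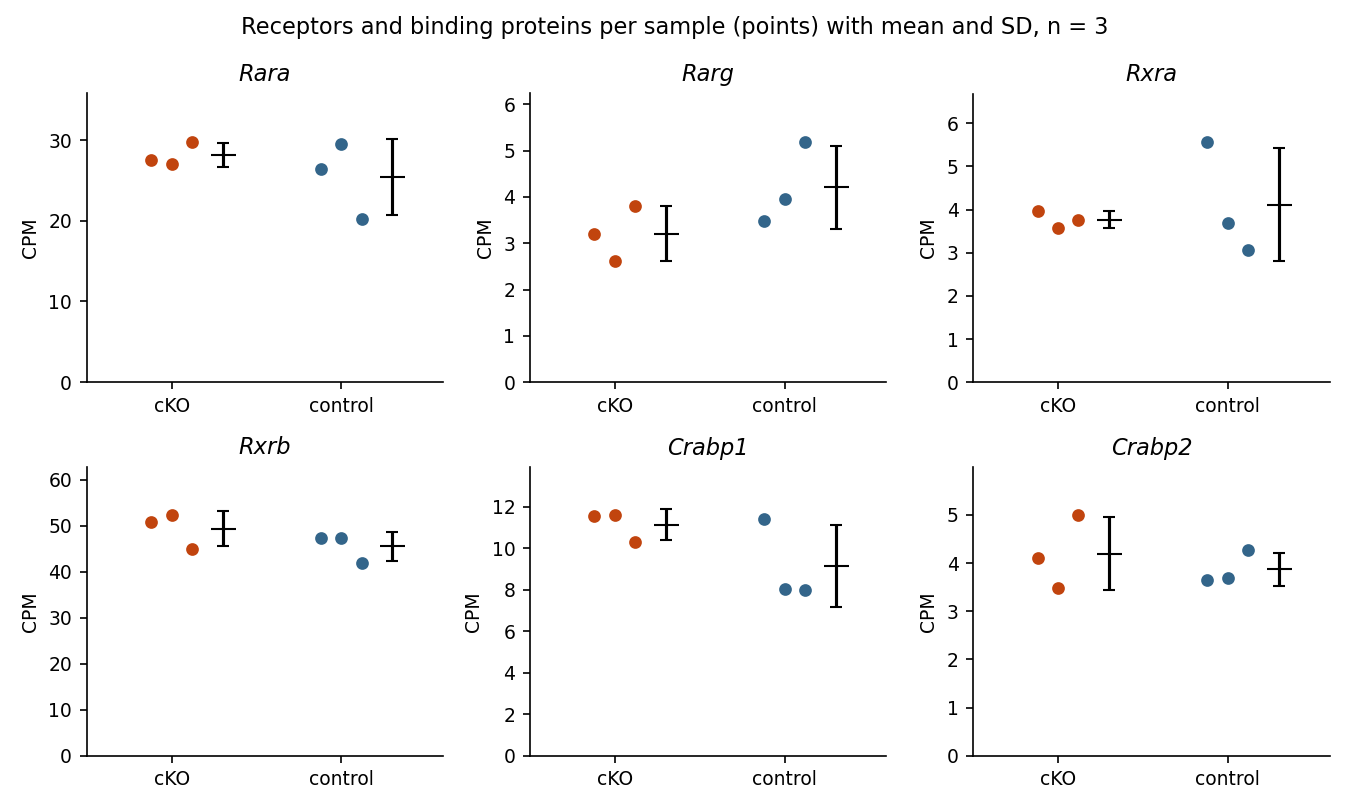
CPM of Rara, Rarg, Rxra, Rxrb, Crabp1 and Crabp2 in each sample (points), cKO left and control right, with the group mean and SD as black marks (n = 3 each). The groups overlap for each of the 6 genes.

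Across clusters the other members did not share the Stra8 pattern. Among clusters 0 to 3, cluster 0 was the highest in 2 of 6 samples for Rara and for Rxrb, in 1 of 6 for Crabp1 and in 0 of 6 for Rarg, Rxra and Crabp2. As means over samples, Rara ranged from 19.9 ± 8.05 CPM in cluster 4 to 29.1 ± 2.51 CPM in cluster 3 (SD, n = 6). Rxrb ranged from 44.2 ± 3.74 CPM in cluster 1 to 53.5 ± 21.3 CPM in cluster 4, where a sample gave as few as 10 barcodes. Rarg ranged from 3.47 ± 1.02 CPM in cluster 0 to 4.97 ± 4.04 CPM in cluster 4. Among clusters 0 to 3 Rarg was highest in cluster 3 in 5 of 6 samples, from 20 UMIs there in all. Crabp1 ranged from 9.43 ± 2.19 CPM in cluster 1 to 11.7 ± 3.94 CPM in cluster 3.

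Within clusters, tested where each sample gave at least 20 barcodes, edgeR called 0 members and 0 genes in clusters 0 to 3, a background of 0.0% in each, and DESeq2 called 0 genes in each. Not every member had counts enough for a test. Stra8 was tested in cluster 0 alone, and Rarg, Rxra and Crabp2 in clusters 0 and 1. Crabp1 was tested in clusters 0 to 2, Rara and Rxrb in clusters 0 to 3, and Rarb in none. At an unadjusted p under 0.05 there were 392 genes in cluster 0 (3.88%), 333 in cluster 1 (3.37%), 319 in cluster 2 (4.04%) and 202 in cluster 3 (3.37%). The lowest unadjusted p of a member was 0.0139, for Rxrb in cluster 2, with a log2 fold change of 0.43 ± 0.16 (SE) and an edgeR adjusted p of 0.9996. By the same edgeR test, Crabp1 in cluster 2 (0.70 ± 0.32, unadjusted p = 0.0421) and Rarg in cluster 1 (-0.69 ± 0.32, 0.0489) were also under 0.05. A difference of the genotype effect between clusters 1 and 0 was called for 0 of the 7 members tested (edgeR adjusted p of 0.996 each). The background was 0.0192% of 10413 genes called and 5.03% at an unadjusted p under 0.05. For Stra8 that difference was 0.27 ± 0.60 on the log2 scale (SE).

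The rest of the retinoic acid pathway, from lists chosen with results of these data known, held 0 genes called between genotypes. Of the synthesis enzymes, 7 of 8 were tested and 4 had positive log2 fold changes, with a median of 0.06 beside 0.00 over all genes. Dhrs4 and Rdh14, which act between retinol and retinal, stood at 0.26 ± 0.14 and 0.06 ± 0.16 (SE). Aldh1a2, which makes retinoic acid from retinal, stood at 3.33, 4.92 and 4.05 CPM in cKO samples and at 4.11, 3.16 and 2.89 CPM in controls, groups that overlap.

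Degradation was near the limit of detection in these sorted germ cells. Cyp26b1, whose main source in the fetal testis is the Sertoli cell, had 17 UMIs over all samples, Cyp26a1 had 2 and Cyp26c1 had 0, and none of them was tested. Of the uptake and binding list 3 of 6 genes were tested, led in level by Rbp4, with a log2 fold change of 0.37 ± 0.21 (SE). All 11 receptor coregulators were tested, 6 with positive values and a median of 0.00. Ncor1, a corepressor of unliganded receptors, stood at -0.13 ± 0.10, and the coactivator Crebbp at 0.09 ± 0.08 (SE).

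Of 14 known target genes, 5 passed the filter on low counts and 1 had a positive value, Rec8 at 0.50 ± 0.29 (SE). Among 17 tested regulators and repressors of Stra8, 11 had positive values, with a median of 0.01. Nanos2, the male repressor of meiosis, stood at 4.87, 6.19 and 5.29 CPM in cKO samples and at 7.58, 5.92 and 2.14 CPM in controls. In cKO 3 Nanos2 was thus neither the lowest nor the highest, and Dazl, which germ cells need to respond to retinoic acid, was at 1216 CPM there. Of the early meiotic genes, 27 of 28 tested had positive values, with a median of 0.23 and 0 called. Over all genes, 5776 of 11540 tested had positive values. The 33 of them in the table summed to 1266, 1241 and 1395 CPM in cKO samples 1 to 3 and to 1216, 1102 and 1087 CPM in controls 1 to 3, groups that did not overlap, with cKO 3 the highest. That sum was not tested, and no share of like sums over all genes is given beside it.

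In barcodes with a Stra8 UMI, 5 of 20 early meiotic genes tested were called higher, of which 1, Smc1b, was also called without cKO 3 and by DESeq2. After thinning, 116 Stra8-positive barcodes (8, 16 and 49 in cKO samples 1 to 3 and 16, 14 and 13 in controls 1 to 3) were summed per sample and compared with 4582 Stra8-negative barcodes, with the sample as a block. edgeR tested 8671 genes, not including Stra8, and called 1.88% of them, 40 higher, or 0.461%, and 123 lower, or 1.42%, while 12.2% had an unadjusted p under 0.05. With RLE in place of TMM scaling it called 92 higher and 70 lower, so the share of higher calls was 56.8% instead of 24.5%. The counts rest in part on cKO 3, without which 13 were higher and 48 lower, and they were 22 and 72 without control 1.

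Of 33 early meiotic genes in the table, 20 were tested. Stra8-positive barcodes had positive values for 19 of these 20, with a median log2 fold change of 0.62. Over all genes 3852 of 8671 were positive, with a median of -0.04. Of the 20, 5 were called, all higher: Rec8, Sycp3, Smc1b, Sycp1 and Tex101. Without cKO 3, 16 of 19 were positive and 1 was called, Smc1b. DESeq2 also called 1, Smc1b. Cluster 0 held 86 of the 116 positive barcodes, and within cluster 0 alone 13 of 14 listed genes were positive and 3 were called, Smc1b, Sycp1 and Sycp3. The list was chosen with earlier results of these data known.

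Smc1b, a cohesin subunit of meiotic chromosomes, stood at 300, 325 and 531 CPM in the Stra8-positive barcodes of cKO samples 1 to 3 and at 412.5, 371 and 331 CPM in those of controls 1 to 3. In Stra8-negative barcodes it stood at 234, 237 and 234 CPM in cKO samples and 184.5, 175 and 161 CPM in controls. The positive barcodes were higher in 6 of 6 samples without overlap, with a log2 fold change of 0.92 ± 0.09 (SE) and an edgeR adjusted p of 2.16e-20, and of 0.81 without cKO 3.

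Sycp3, of the synaptonemal complex that pairs homologous chromosomes, stood at 87.5, 50 and 133 CPM in the positive barcodes of cKO samples and at 68.8, 85.7 and 53.8 CPM in those of controls. In negative barcodes it ranged from 30.3 to 43.2 CPM. Positive barcodes were again higher in 6 of 6 samples, by 1.20 ± 0.18 on the log2 scale (SE; edgeR adjusted p = 5.20e-08), and by 0.92 without cKO 3, where the adjusted p was 0.0549.

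Rec8, a meiotic cohesin subunit that responds to retinoic acid, averaged 17.2 ± 12.9 CPM in positive and 4.82 ± 2.48 CPM in negative barcodes (SD, n = 6 samples). It was higher in 5 of 6 samples, from 27 UMIs in positive barcodes, with a log2 fold change of 2.34 ± 0.40 (SE) and an edgeR adjusted p of 2.74e-06. Sycp1, another synaptonemal gene, was called at 1.01 ± 0.18 but was higher in 3 of 6 samples, with 155 CPM in the positive barcodes of cKO 3 and 7.69 CPM in those of control 3. Tex101, a germ cell surface protein gene, was called at 1.93 ± 0.32 and was higher in 4 of 6 samples. Without cKO 3 the log2 fold changes of Rec8, Sycp1 and Tex101 were 1.62, 0.51 and 1.51, and none of the 3 passed the threshold.

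The 15 listed genes that were not called included Sycp2 at 1.37 ± 0.46, Tex12 at 0.92 ± 0.36, Hormad2 at 0.85 ± 0.34, Syce3 at 0.64 ± 0.45, Hormad1 at 0.63 ± 0.20 and Syce1 at 0.60 ± 0.19 (log2 fold change with SE). Stag3, 4930447C04Rik, Dmc1, Mei4, Stk31, Syce2, Hsf2bp and Ythdc2 lay between 0.10 and 0.44. Spo11, which encodes the enzyme that makes meiotic double-strand breaks, had the one negative value, -1.12 ± 0.64, from 5 UMIs in positive barcodes.

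**Figure D5:**
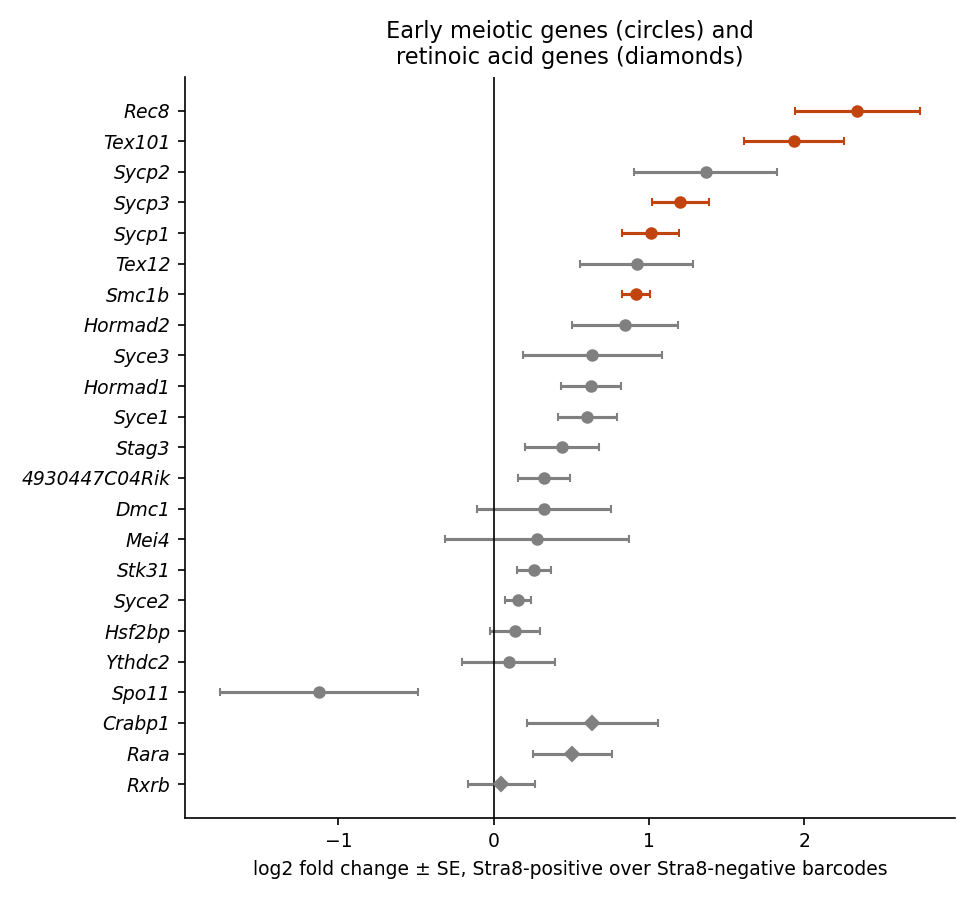
Log2 fold change with SE for Stra8-positive over Stra8-negative barcodes (x axis) of the 20 early meiotic genes tested (circles) and of 3 retinoic acid genes (diamonds); orange points passed the adjusted threshold and grey points did not. Of the 20 circles 19 lie right of 0, and the 5 orange ones are Rec8, Tex101, Sycp3, Sycp1 and Smc1b.

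Among the other called genes with the largest increases in Stra8-positive barcodes, Mdk had the lowest adjusted p. Mdk encodes midkine, a heparin-binding growth factor known as a retinoic acid response gene in mouse embryonal carcinoma cells. It stood at 175, 112.5 and 135 CPM in the positive barcodes of cKO samples 1 to 3 and at 50, 193 and 108 CPM in those of controls 1 to 3. In negative barcodes it ranged from 23.1 to 40.5 CPM, so the kinds of barcode did not overlap. Mdk had a log2 fold change of 1.97 ± 0.17 (SE) with an edgeR adjusted p of 1.22e-26, and of 1.82 without cKO 3, where it was still called.

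Calcoco2, an autophagy receptor gene, was higher in 6 of 6 samples by 2.70 ± 0.57 on the log2 scale (SE), from 13 UMIs in positive barcodes. A single UMI in the positive barcodes of cKO 1 already made 12.5 CPM, the level of Calcoco2 there, so values of such genes rest on few molecules. Folr1, a folate receptor gene, and Acaa1b, of peroxisomal fatty acid oxidation, were higher in 6 of 6 samples by 1.72 ± 0.38 and 1.62 ± 0.30. Mospd1, 1700018B24Rik and Vps13d were called at 1.79, 1.74 and 1.66 with 5 of 6 samples higher. Phkg1, a phosphorylase kinase subunit gene, was called at 1.65 but was higher in 3 of 6 samples. In cKO 3, 51 Phkg1 UMIs lay in 3 of the 36 barcodes with 1 Stra8 UMI. Of the 5 genes with the largest decreases among those called, Zfp7 had 0 UMIs in all positive barcodes, and Enpp2, Primpol, Retn and Gm26737 had log2 fold changes of -2.71, -2.59, -2.15 and -1.68, from 2, 3, 5 and 9 UMIs in positive barcodes. Zfp7 stood at 6.85 ± 0.640 CPM in negative barcodes (SD, n = 6). In alternative runs Zfp7 and Enpp2 each passed the threshold in 7 of 13. Retn passed in 9 of 13, Gm26737 in 9 of 14 and Primpol in 11 of 15. The smallest decreases in those runs were -0.33 for Zfp7, -1.79 for Enpp2, -0.83 for Primpol, -0.46 for Retn and -0.54 for Gm26737. Retn was lower in 3 of 6 samples, with 37.9 CPM in the negative barcodes of cKO 3 and 15.1 CPM in those of control 3.

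The receptors and binding proteins did not pass the test beside Stra8. Rara averaged 36.7 ± 13.2 CPM in positive and 26.8 ± 2.94 CPM in negative barcodes (SD, n = 6), with a log2 fold change of 0.51 ± 0.25 (SE; edgeR adjusted p = 0.393). Rxrb had 0.05 ± 0.21 and Crabp1 0.63 ± 0.42, and Rarb, Rarg, Rxra and Crabp2 did not pass the filter on low counts. Of the synthesis, uptake and coregulator lists, 0 genes were called. Of the Stra8 regulators 0 of 15 were called, with Dazl at 0.04 ± 0.05. Of the genes of male germ cell differentiation 1 of 9 was called, Mael, a piRNA pathway gene also active in meiosis, at 0.56 ± 0.15 (SE; edgeR adjusted p = 0.0217). Of these 9 genes, 4 had positive and 5 negative values. Of the 8 germ cell markers, a list that also holds Mael, 1 was called higher, which was Mael again, and 1, not named here, was called lower. Eif2s3y, a Y-linked gene, averaged 68.9 ± 14.1 CPM in positive and 89.8 ± 8.97 CPM in negative barcodes and was not called (log2 fold change -0.40 ± 0.17, adjusted p = 0.282).

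Of 40 genes called higher, 27 had a promoter sequence, and 6 of these 27 held AGGTCA, or 22.2%, where 11.9% of the 6741 genes tested that had one did. Of the genes called lower, 15 of 91 held it, or 16.5%, so both directions lay above the share of the genes tested. These shares are given without a test. The stretches of Sycp3 shown above come from 1 of these 6.

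In barcodes with 0, 1, 2 to 3 and 4 or more Stra8 UMIs, the 33 early meiotic genes summed to 1345, 1652, 2201 and 3072 CPM in cKO 3, and to 1164, 1443, 1483 and 1996 CPM in the other 5 libraries. Without the 5 genes called above, the sums of the first and last class were 999.6 and 1714 CPM in cKO 3 and 887 and 1164 CPM in the other 5. The class of 4 or more had the highest level for 20 of the 33 genes in cKO 3. In the other 5 libraries it had the highest level for 17 of 33. There, 8 of its 14 barcodes came from control 2 and 0 from cKO 2. No share over all genes is given beside these counts, so they are a description. Cluster 0 made up 42.9% of the first class and 95.8% of the last in cKO 3. In the other 5 libraries it made up 41.6 and 92.9%. The part of cluster 0 in the levels by class was not tested. In the same 4 classes Sycp3 stood at 42.7, 59.5, 95.7 and 198 CPM in cKO 3, and at 34.3, 41.6, 63.0 and 132 CPM in the other 5 libraries. For Rec8 the levels were 4.12, 10.5, 12 and 53.8 CPM in cKO 3 and 4.39, 13.5, 8.59 and 31.8 CPM in the other 5. Smc1b stood at 236, 359, 520.2 and 746 CPM in cKO 3 and at 195, 276, 338 and 536 CPM in the other 5. The level of each of these 3 genes was highest in the class of 4 or more in both sets of libraries. All 3 were among the 5 genes called above from Stra8-positive barcodes of the same libraries, so these levels are no separate support.

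For Mdk the class of 4 or more reached 313 CPM in cKO 3 and 255 CPM in the other 5, against 27.1 and 31.7 CPM in barcodes without a Stra8 UMI. Meioc, a meiosis regulator gene below the filter on low counts in the test above, reached 40.3 and 27.3 CPM, against 3.17 and 2.70 CPM. These classes hold 24 barcodes in cKO 3 and 14 in the other 5 libraries, at median depths of 12178 and 15158 UMIs, and the levels are a description with no test. Xist had 0 UMIs in all Stra8-positive barcodes, but 3 UMIs would make 10.1 CPM in the class of 4 or more in cKO 3, above its 0.761 CPM in barcodes without a Stra8 UMI there. Eif2s3y was at 77.3 CPM in the class of 4 or more in cKO 3 and at 72.7 CPM in that of the other 5. Rara reached 73.9 and 40.9 CPM in that class, against 29.2 and 25.1 CPM in barcodes without a Stra8 UMI.

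Of the 4932 genes that averaged 20 CPM or more, the 5 whose level over the 6 samples was most like that of Stra8 were Huwe1, Orc2, Ahdc1, Agap1 and Nbeal1, with Pearson r of 0.997, 0.980, 0.959, 0.958 and 0.944 on log2(CPM + 1). Their changes were small: Huwe1 stood at 76.0, 74.8 and 86.0 CPM in cKO samples and at 78.9, 82.1 and 74.4 CPM in controls. Over 26 sums by sample and cluster the closest were Hells, Spop, Rassf7, Actn2 and Hdgfrp2, with r of 0.713, 0.667, 0.646, 0.619 and 0.607. The sums of a sample share a library, and the highest of many r values is high by selection.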

How the data were processed

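The deposited table holds UMI counts of 27998 genes in 5160 barcodes, whole numbers that the authors did not normalize. The sample and author cluster of every barcode come from another deposited table. Cell Ranger, Seurat 3.0 and mm10 are named in the submitters' processing notes, without parameters. The sources used here do not state the annotation release or the use of strand in counting. A minimum of 500 genes and a limit of 10% on mitochondrial UMIs left out 6 barcodes. Scrublet, run per sample, called 160 doublets (3.10%), which were kept.

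Counts were summed per sample and tested by the quasi-likelihood method in edgeR 4.0.16 under R 4.3.3 (robust, filterByExpr, TMM), with Benjamini-Hochberg adjustment over all genes tested and a threshold of 0.05. DESeq2 1.42.0 was an alternative. CPM values carry no TMM factors. For shares and for Stra8-positive barcodes, each barcode was thinned at random to 10000 UMIs, which left out 25, 91 and 66 shallower barcodes in cKO samples 1 to 3 and 43, 13 and 218 in controls 1 to 3. Gene coordinates are from GENCODE vM21 and promoters from RefSeq, both on GRCm38. The scripts were tested on simulated data. The members and lists were chosen with earlier results of these data known. Genes were named by a rule: the members, the meiotic list, called genes or the 3 most abundant of other lists, the 10 highest and 5 lowest called genes in Stra8-positive barcodes, and the 5 most like Stra8, while Aldh1a2, Nanos2, the Cyp26 genes, Gm7120, Meioc, Xist and Eif2s3y were named after their values were seen.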

Additional observations from a re-analysis of the deposited data

Results flagged for a closer look

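The genotype effect differed between author clusters 1 and 0 for 2 of 10413 genes by edgeR's interaction test, neither of them a member. For Retn, cKO samples averaged 20.2 CPM and controls 6.16 CPM in cluster 1, and cKO samples averaged 8.75 CPM and controls 12.3 CPM in cluster 0. The log2 difference of the effects was 2.33 ± 0.26 (SE, adjusted p = 2.20e-08). For Zfp607, cKO samples averaged 8.07 CPM and controls 4.16 CPM in cluster 1, and cKO samples averaged 3.09 CPM and controls 6.92 CPM in cluster 0, a difference of 2.50 ± 0.39 (adjusted p = 0.000133). In cluster 1, Retn stood at 55.1 CPM in cKO 3 and at 3.16 and 2.41 CPM in cKO 1 and cKO 2. Neither gene was called without cKO 3, where the differences were 0.63 for Retn and 0.95 for Zfp607, without control 3, or by DESeq2. The part of cKO 3 in these values was not tested further.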

How the results depend on the processing

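Between genotypes, the members' adjusted p stayed above the threshold under each alternative run. Leaving out each sample in turn gave 0 to 1 genes higher and 0 to 3 lower over all barcodes, 0 to 1 and 0 to 1 in clusters 0, 1 and 2, and 0 to 1 and 0 to 3 in cluster 3. The difference between clusters 1 and 0 then had 0 to 6 genes higher and 0 to 1 lower. Without a low-count filter, 2 were higher and 4 lower over all barcodes, 7 and 8 in cluster 0, 1 and 7 in cluster 1, 1 and 2 in cluster 2, and 3 and 14 in cluster 3, and the cluster difference had 4 higher. DESeq2 gave 1 higher and 3 lower over all barcodes and 0 higher for the cluster difference. Same-numbered samples correlated at -0.13, 0.23 and 0.20, and differently numbered ones between -0.30 and 0.16. These few values do not settle whether the numbers pair samples. A replicate block gave 0 calls over all barcodes and in clusters 0 to 2, 1 higher in cluster 3, and a Stra8 log2 fold change of 0.07.

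Directions turned when 1 sample was left out for Stra8 (-1.23 without cKO 3, up to 0.99 without control 2; in cluster 0 -1.23 and 1.12), for Rxra (0.16 without control 1, down to -0.32) and for Crabp2 (-0.084 without cKO 3, up to 0.22). With equal barcodes per sample Rxra was at 0.13 and Crabp2 at -0.012. Beside Stra8, leaving out each sample gave 13 to 53 genes higher and 48 to 130 lower. RLE factors gave 92 and 70, no scaling 74 higher, no low-count filter 369 lower, DESeq2 23 and 25, thinning to 5000 UMIs 10 higher, no thinning 121 and 227, removal of doublets 61 higher, cluster 0 alone 62 higher, and at least 2 Stra8 UMIs 205 lower. The settings without scaling and with at least 2 UMIs were chosen after seeing the data. Log2 fold changes beside Stra8 turned when 1 sample was left out for Syce3 (-0.69 to 0.83), Ythdc2 (-0.12 and -0.012, up to 0.27), Mei4 (-0.0036 to 0.73), Hsf2bp (-0.14 to 0.26) and Rxrb (-0.058 and -0.017, up to 0.13). They also turned for Ythdc2 (-0.0069) and Rxrb (-0.053) without the filter, for Rxrb without thinning (-0.14), Hormad2 at 5000 UMIs (-0.62), Hsf2bp in cluster 0 (-0.091) and Phkg1 with at least 2 UMIs (-0.22). The share of barcodes with a Stra8 UMI was 0.971% in cKO 2 and 3.03% in cKO 3 at 5000 UMIs, and 6.10% in cKO 3 without thinning or over every deposited barcode. Where no value shows the cause, the cause was not tested. Positive barcodes gave 80000 to 490000 UMIs per sample, so values of genes under about 20 CPM there rest on few molecules.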
